A study of Mus musculus with 12 samples.

Results

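The B cell genes Blk, Cd79a, Cd79b, Ms4a1 and Cd22 were followed in RNA of whole mouse hearts. They are 5 of the 24918 genes in the authors' table and were picked by symbol, with earlier results of these data known. The 12 libraries came from untreated C57BL/6 mice aged 2 months. By their titles, 3 male and 3 female libraries are from floxed mice, which carry loxP sites on both copies of the glucocorticoid receptor gene (GRloxP/loxP). Another 3 male and 3 female libraries are from cardioGRKO mice, which carry the same floxed alleles plus 1 copy of αMHC-Cre, a transgene that drives Cre recombinase from a cardiomyocyte promoter. All 4 groups thus share the floxed alleles, and what Cre itself does cannot be told apart from what the deletion does. B cells do not use that promoter and are expected to keep the receptor. Every sample's genotype entry says wild-type, and the grouping was therefore taken from the titles. Whether the 3 libraries of a group stem from different animals is not stated, so p-values rest on a spread between libraries that may be technical. The study asked how cardiac transcripts change when cardiomyocytes lack the receptor, in each sex.

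B cells recognise antigen through the B cell receptor, a membrane immunoglobulin that signals through the paired chains encoded by Cd79a and Cd79b. Src-family kinases, among them the product of Blk, phosphorylate those chains once the receptor is engaged. The product of Cd22 is a sialic acid-binding co-receptor that dampens the signal, and Ms4a1 encodes CD20, a tetraspan protein used to mark mature B cells. The mouse heart holds a resident population of B cells, many of them attached to the vessel walls. In bulk RNA of an organ, more B cells and more of a transcript per B cell cannot be told apart.

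The values are log2 normalised expression levels as deposited, 1 per gene and library. They are not scaled to gene length, so levels are not compared between genes. Cardiomyocyte identity of the tissue was plain, with Myh6, the main cardiac myosin heavy chain, at group means of 19.36 to 19.47. Nr3c1, the targeted gene, had means of 11.41 in male floxed and 10.85 in male cardioGRKO libraries, but 10.74 in libraries labelled female floxed and 10.88 in those labelled female cardioGRKO. The receptor transcript therefore went against the labels in females, and the female groups are called by their labels below. In 2 libraries labelled female floxed, the corneal keratin gene Krt12 read 13.13 and 13.98, against 7.16 to 8.49 in the other 10. Low values are drawn together on the deposited scale. Kdm5d, a Y-linked gene, was at a mean of 8.33 in male floxed hearts and still at 6.88 in female floxed hearts, which lack the chromosome. A log2 difference of a low gene is accordingly smaller than the change in its reads would be.

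In males, all 5 genes were higher in cardioGRKO than in floxed hearts, with no overlap between the groups. The log2 differences ran from 0.070 for Cd22 to 0.71 for Blk, with a median of 0.12, against -0.0021 over the 14721 genes tested. In females labelled the same way the differences ran from 0.0076 for Blk to 0.12 for Cd79b, with a median of 0.063, against -0.00037 over all genes tested. The limma adjusted p was under 0.05 for 5 of the 5 in males, where 12.8% of all genes tested were called higher. In females it was under 0.05 for 3 of the 5 (Cd79b, Ms4a1 and Cd22), where 15.2% of all genes were called higher. The groups did not overlap for 5 of 5 genes in males and 4 of 5 in females, beside 19.4% and 21.6% of all genes with every cardioGRKO library above every floxed one. Because the genes were picked with these contrasts known, nothing is read from those counts and no p-value is given for them. Without the 2 libraries with high Krt12, which leaves 1 library labelled female floxed, the female differences were -0.022 for Blk, 0.053 for Cd79a, 0.15 for Cd79b, 0.077 for Ms4a1 and 0.056 for Cd22. Blk thus changed sign, and the other 4 genes stayed higher.

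**Figure D1:**
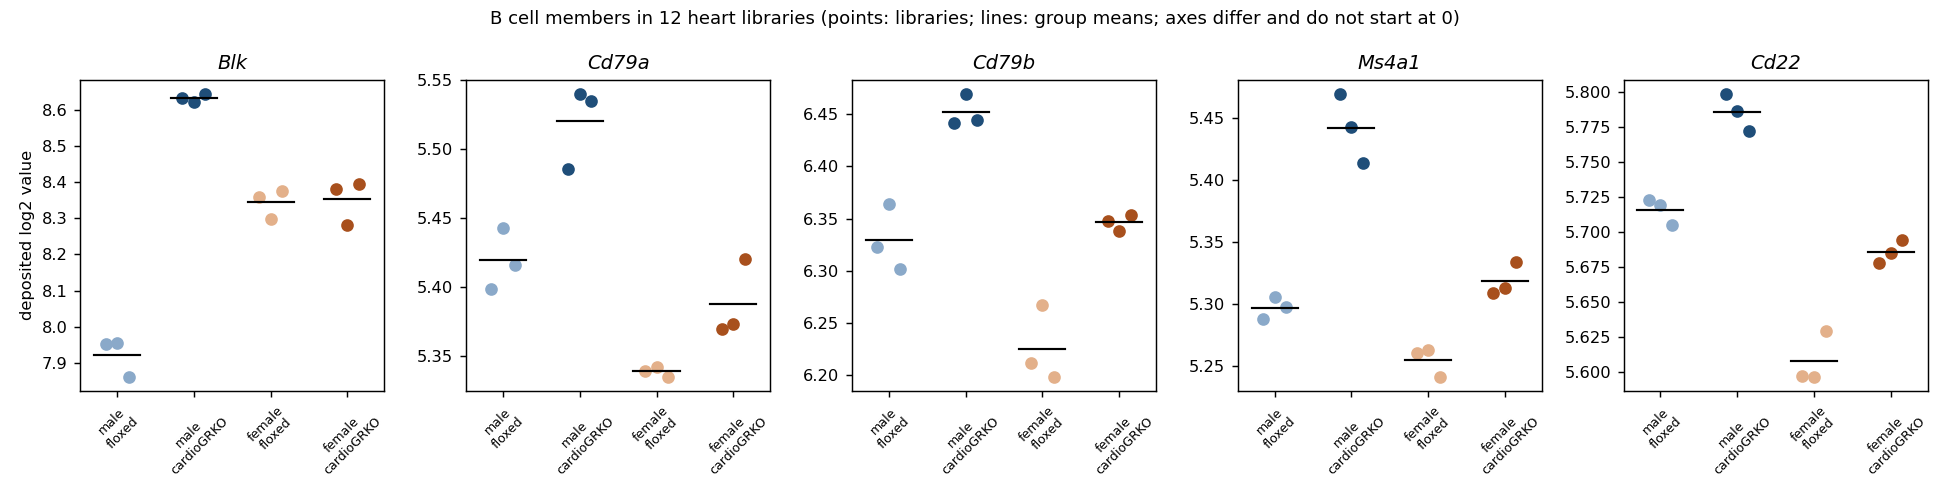
Deposited log2 value (vertical axes, each with its own range and not starting at 0) of Blk, Cd79a, Cd79b, Ms4a1 and Cd22 in the 12 libraries, by sex and labelled genotype; points are libraries and lines are group means of 3. Male cardioGRKO hearts are highest for all 5 genes, and Blk is the gene with its lowest group in male floxed hearts, at a mean of 7.92.

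The signalling chains of the receptor come first. Cd79a, which encodes the alpha chain, was at 5.40, 5.44 and 5.42 in male floxed hearts and at 5.49, 5.54 and 5.53 in male cardioGRKO hearts. The libraries labelled female floxed read 5.34, 5.34 and 5.33, and those labelled female cardioGRKO read 5.37, 5.37 and 5.42. Every cardioGRKO library lay above every floxed library of its sex, by a mean of 0.10 (SE 0.020) in males and 0.049 (SE 0.020) in females. Undoing the log2 of these deposited values gives 7.24% and 3.44%. Low values are drawn together on that scale, so percentages here and below are not changes in reads. The male groups were also above the corresponding female groups.

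Cd79b, which encodes the beta chain, was at 6.32, 6.36 and 6.30 in male floxed and at 6.44, 6.47 and 6.44 in male cardioGRKO hearts. Libraries labelled female floxed read 6.21, 6.27 and 6.20, and those labelled female cardioGRKO read 6.35, 6.34 and 6.35. The groups stood apart in both sexes. The difference was 0.12 (SE 0.024) in each sex, or 8.84% in males and 8.72% in females. The male difference minus the female one was 0.0016 (SE 0.034), the smallest of the 5 in size. For both chains the group labelled female floxed was lowest and male cardioGRKO highest.

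Blk, the kinase, was at 7.95, 7.95 and 7.86 in male floxed hearts and at 8.63, 8.62 and 8.64 in male cardioGRKO hearts. The lowest male cardioGRKO library lay 0.67 above the highest male floxed library. The mean difference of 0.71 (SE 0.035) corresponds to 1.63-fold, or 63.5%, once the log2 of the deposited values is undone. In females the libraries labelled floxed read 8.36, 8.30 and 8.37 and those labelled cardioGRKO read 8.38, 8.28 and 8.39. Those ranges overlapped, and the difference was 0.0076 (SE 0.035). Leaving out 1 library at a time moved the female value between -0.015 and 0.043, so its sign was not fixed, while the male value stayed between 0.68 and 0.72. The male difference exceeded the female one by 0.70 (SE 0.049).

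The sexes also differed within a label. Blk was higher by 0.42 in libraries labelled female floxed than in male floxed ones, with no overlap. It was lower by 0.28 in libraries labelled female cardioGRKO than in male cardioGRKO ones, again without overlap. The other 4 genes were lower in females under both labels. Among libraries labelled floxed they were lower by 0.042 for Ms4a1 to 0.11 for Cd22. Among those labelled cardioGRKO they were lower by 0.099 for Cd22 to 0.13 for Cd79a, without overlap. Blk alone changed its order between the sexes with the label. Nr3c1 in libraries labelled female floxed (10.74) was not at the male floxed level (11.41), so sex and genotype cannot be told apart here.

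**Figure D2:**
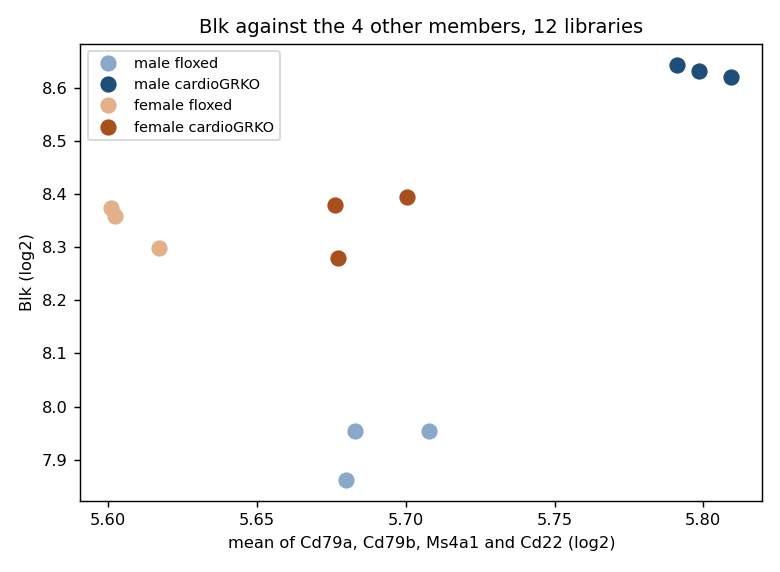
Blk (vertical axis, log2) against the mean of Cd79a, Cd79b, Ms4a1 and Cd22 (horizontal axis, log2) in the 12 libraries, coloured by group; neither axis starts at 0. Male floxed libraries sit lowest for Blk at a middle level of the other 4 genes, and Pearson r over the 12 libraries is 0.46.

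Ms4a1, the CD20 gene, was at 5.29, 5.31 and 5.30 in male floxed and at 5.47, 5.44 and 5.41 in male cardioGRKO hearts. Libraries labelled female floxed read 5.26, 5.26 and 5.24, and those labelled female cardioGRKO read 5.31, 5.31 and 5.33. The groups stood apart in both sexes. The difference was 0.14 (SE 0.018, 10.6%) in males and 0.063 (SE 0.018, 4.49%) in females, and the male difference was larger by 0.081 (SE 0.025).

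Cd22, the inhibitory co-receptor, was at 5.72, 5.72 and 5.70 in male floxed and at 5.80, 5.79 and 5.77 in male cardioGRKO hearts. Libraries labelled female floxed read 5.60, 5.60 and 5.63, and those labelled female cardioGRKO read 5.68, 5.69 and 5.69. The cardioGRKO libraries were above the floxed ones in both sexes. The difference was 0.070 (SE 0.018, 4.95%) in males and 0.078 (SE 0.018, 5.55%) in females, and the comparison of the 2 gave -0.0083 (SE 0.025). Activating chains and the dampening co-receptor therefore lay on the same side of the floxed hearts.

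The bases before the start sites are shown for the 2 of 5 genes matched in the RefSeq promoter table (GRCm38.p6), Cd79a and Cd22, because they are the regions where B cell factors act on such genes. Each run holds the 250 bases before the start, 5′ to 3′ on the gene's strand, from chr7:24897247-24897496 (plus strand) for Cd79a and chr7:30879029-30879278 (minus strand) for Cd22. Capitals mark matches to 4 motifs searched on both strands.
Cd79a: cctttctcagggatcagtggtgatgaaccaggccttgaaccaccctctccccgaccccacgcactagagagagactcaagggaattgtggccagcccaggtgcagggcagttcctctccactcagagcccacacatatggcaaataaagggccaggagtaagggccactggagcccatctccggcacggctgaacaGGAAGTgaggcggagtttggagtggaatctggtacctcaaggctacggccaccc
Cd22: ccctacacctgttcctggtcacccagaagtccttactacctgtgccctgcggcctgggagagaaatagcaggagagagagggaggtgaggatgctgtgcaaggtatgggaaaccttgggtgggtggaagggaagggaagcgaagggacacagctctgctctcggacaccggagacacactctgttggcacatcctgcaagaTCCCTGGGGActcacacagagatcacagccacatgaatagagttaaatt
The Cd79a window held the Ets core GGAAGT, starting at position -54 from the start site, which 19.7% of 32851 promoters of this length also hold. The Cd22 window held the palindrome of EBF factors, TCCC and GGGA with any pair of bases between them, starting at -49, found in 0.779% of promoters. Neither window held the octamer ATTTGCAT (1.60% of promoters) or AGAACA, a half-site of the glucocorticoid receptor (16.1%), in these letters. No 2 of these motifs overlapped in either window.

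**Figure D3:**
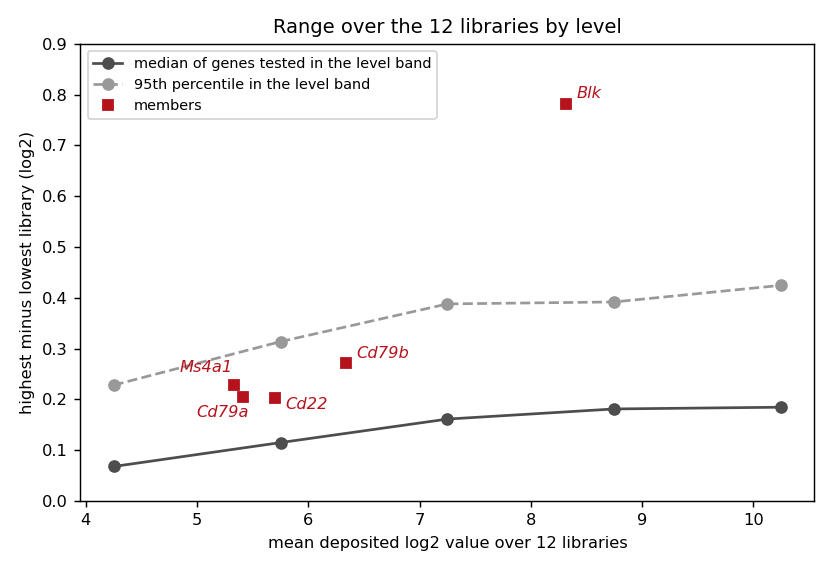
Highest minus lowest library (vertical axis, log2) against the mean level over the 12 libraries (horizontal axis, log2) for the 5 B cell genes, with the median and the 95th percentile of all genes tested in bands of level. Blk lies above the 95th percentile of its band and the other 4 genes lie between the median and the 95th percentile.

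The range of a gene over the 12 libraries takes in sex as well as label. It was set beside the ranges of genes at a like level, within 0.5 log2 of each gene. Blk ranged over 0.78 across the 12 libraries, where genes of its level had a median range of 0.18 and a 95th percentile of 0.41. The other ranges were 0.20 for Cd79a, 0.27 for Cd79b, 0.23 for Ms4a1 and 0.20 for Cd22, where genes of like level had medians of 0.10 to 0.13 and 95th percentiles of 0.28 to 0.34. Of genes at like level, 98.8% had a smaller range than Blk and 89.7% to 92.9% a smaller range than the other 4. The 5 genes were picked with these contrasts known, so nothing is read from those shares. In the band of levels from 5 to 6.5, which holds Cd79a, Cd79b, Ms4a1 and Cd22, 12.5% of genes were called higher in male and 6.56% in female cardioGRKO hearts. All 5 genes passed the filter on low values.

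Across the 12 libraries Cd79a, Cd79b, Ms4a1 and Cd22 varied together, with pairwise Pearson r of 0.89 to 0.92. Blk related less closely to them, with r of 0.28 to 0.63. After the group means were taken off, r among the 4 ran from -0.19 to 0.46, so the high r values came from differences between the group means. These points share their libraries and the authors' normalisation, and the r values describe 12 libraries only.

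Other genes of the B cell programme were taken from 4 lists of 55 genes, of which 52 were in the table and 46 were tested. Ighm, Ighd and Igkc, the immunoglobulin heavy and kappa chain genes, were not analysed here, and Pax5, the B lineage factor, was at 2.79 in male floxed hearts and below the filter. In males 14 of the 46 (30.4%) rose and 3 (6.52%) fell, beside 12.8% and 14.6% of all genes tested. In females 9 (19.6%) rose and 4 (8.70%) fell, beside 15.2% and 14% of all genes. The median log2 difference was 0.041 in males and 0.024 in females. The female share called higher was near that of all genes, but most of these genes lie at levels between 3.5 and 9.5. In the bands of those levels, 4.92% to 9.67% of genes were called higher in females and 8.41% to 12.7% in males. Called lower there were 12.8% to 14.2% in females and 2.22% to 10.3% in males. The number of the 46 called higher in females was 5 without female floxed replicate 3, but 16 under quantile normalization. The difference between the male and female comparisons passed the test for 6 genes with a larger male and 3 with a larger female value. The shares of all genes were 14.3% and 17%, or 31.3% in either direction.

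Of 15 surface receptors and co-receptors tested, 7 rose and 1 fell in males, and 6 rose and 0 fell in females, where 10 had an unadjusted limma p under 0.05, and the medians were 0.055 and 0.054. Cd37, a tetraspanin of B cells, rose in males by 0.18 (adjusted p = 0.00032), from a mean of 6.87 to 7.05. Faim3, the IgM Fc receptor gene, rose by 0.069 in males (adjusted p = 0.0016) and by 0.055 in females (adjusted p = 0.0084, and 0.054 without the 2 libraries with high Krt12). Ltb, which encodes lymphotoxin beta, rose by 0.073 (adjusted p = 0.0034) and 0.065 (adjusted p = 0.0077).

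Co-receptors differed in direction. Cr2, a complement receptor of B cells, rose by 0.080 in males (adjusted p = 0.0002), while the female value of 0.030 had an adjusted p of 0.10. Cd72, a co-receptor that restrains signalling, fell by 0.16 in males (adjusted p = 0.00031), from 8.35 to 8.19. The surface genes were therefore not uniform in direction.

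**Figure D4:**
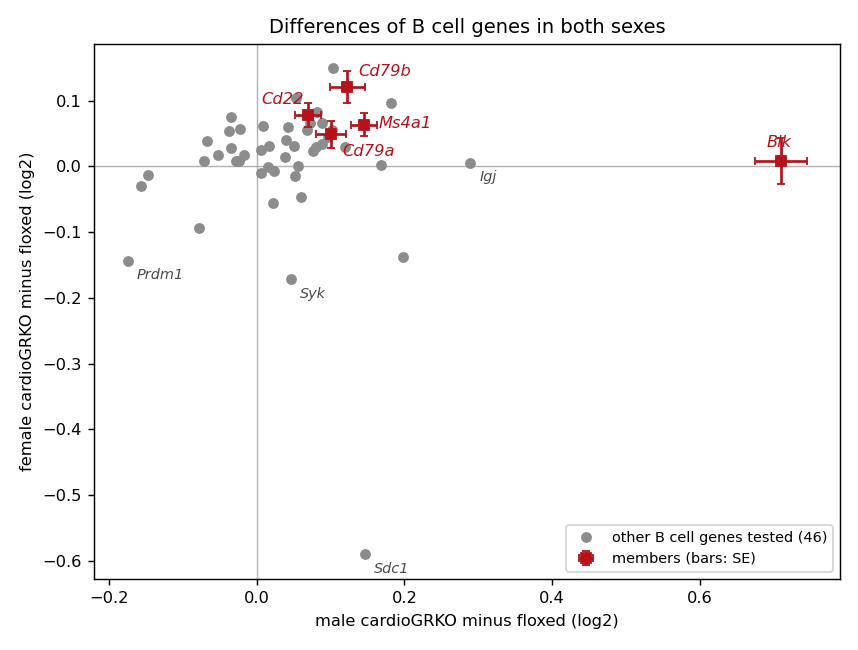
Log2 difference of cardioGRKO minus floxed in females (vertical axis) against males (horizontal axis) for the 5 B cell genes (squares, bars are SE) and the 46 other B cell genes tested (grey points). Blk lies at 0.71 in males and 0.0076 in females, and Igj is the grey point nearest to it on these axes, at 0.29 and 0.0051.

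Of 4 tested immunoglobulin and plasma cell genes, 1 rose in males and 1 fell in females. Igj, which encodes the joining chain of polymeric immunoglobulin, was at 4.74, 4.74 and 4.74 in male floxed and 5.02, 5.02 and 5.04 in male cardioGRKO hearts. It rose by 0.29 in males (adjusted p = 6.1e-11), whereas the female value was 0.0051 (adjusted p = 0.82). The male difference minus the female one was 0.28 (adjusted p = 5.5e-09), so Igj shared with Blk a rise in males and overlapping female groups. The mean of Igj in libraries labelled female floxed was 4.74, near that of male floxed hearts, whereas that of Blk was higher by 0.42. Sdc1, the gene of the plasma cell marker syndecan 1 that epithelia also express, fell by 0.59 in females (adjusted p = 0.010), but the female groups overlapped. It was 9.37, 9.70 and 8.65 in libraries labelled female floxed, and the 2 high values are in the libraries with high Krt12. Without those 2 libraries the difference was 0.0042 (adjusted p = 0.96).

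Of 15 signalling genes below the receptor, 2 rose and 0 fell in males, where 4 had an unadjusted limma p under 0.05, and 3 rose and 2 fell in females. Bank1, a B cell scaffold protein gene, rose by 0.082 in males (adjusted p = 0.010) and by 0.083 in females (adjusted p = 0.0095). Its adjusted p was 0.057 in males without male cardioGRKO replicate 1, 0.093 in males under quantile normalization and 0.079 in females without the 2 libraries with high Krt12. Syk, the kinase that binds the phosphorylated chains and is used by many other cells, fell by 0.17 in females (adjusted p = 0.00038), with a male value of 0.046 (adjusted p = 0.30), which was 0.083 (adjusted p = 0.034) without male floxed replicate 1.

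Of 12 transcription factors tested, 4 rose and 2 fell in males, and 0 rose and 1 fell in females, where 2 had an unadjusted limma p under 0.05. Spib, an Ets factor of B cells and plasmacytoid cells, rose by 0.12 in males (adjusted p = 1.6e-05), and the female value was 0.029 (adjusted p = 0.18), or 0.052 (adjusted p = 0.028) under quantile normalization. Bcl6, the germinal centre repressor that is also made outside B cells, rose by 0.17 in males (adjusted p = 0.00042). Ebf1, a factor of B lineage commitment that is also made by stromal cells, fell by 0.15 in males (adjusted p = 0.0016). Prdm1, the gene of the plasma cell factor Blimp-1, fell by 0.17 in males (adjusted p = 0.00014) and by 0.14 in females (adjusted p = 0.0010).

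**Figure D5:**
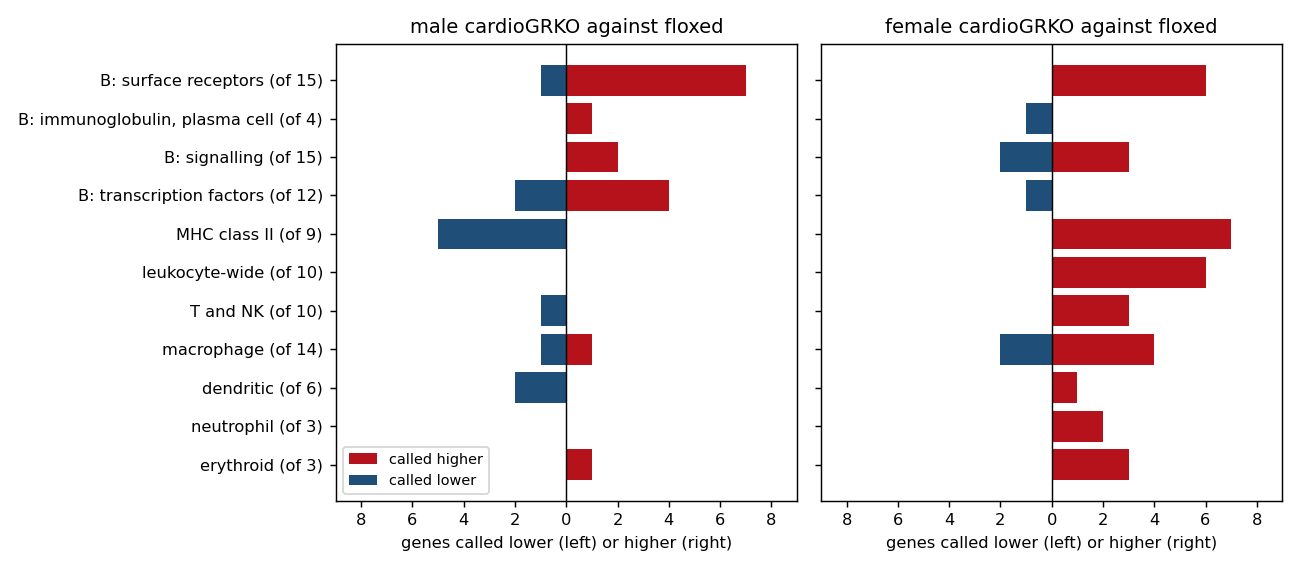
Number of tested genes called lower (left of 0) or higher (right of 0) at a limma adjusted p under 0.05 in cardioGRKO against floxed hearts, in males and in females, for the lists of other B cell genes and of markers of other cells. MHC class II genes go down in males (5 of 9) and up in females (7 of 9), and B cell surface receptors go up for 7 of 15 in males and 6 of 15 in females.

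Markers of other blood cells moved beside these genes, and differently in the male and female comparisons. Class II antigen presentation genes, which B cells share with macrophages and dendritic cells, fell for 5 of 9 in males and rose for 7 of 9 in females. Of all genes tested, 14.6% fell in males and 15.2% rose in females. Cd74, the invariant chain, fell by 0.39 in males and rose by 0.17 in females (adjusted p = 0.00029). H2-Aa fell by 0.35 in males and rose by 0.15 in females (adjusted p = 0.00017). In males the 5 called class II genes were thus lower where the 5 B cell genes were higher, and the other 4 class II genes did not pass the test. The summed level of the class II list was 13.02 to 13.04 (log2) in male floxed and 12.70 to 12.73 in male cardioGRKO libraries, and 12.40 to 12.45 and 12.59 to 12.61 in the libraries labelled female floxed and female cardioGRKO.

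Of 10 genes made by leukocytes of all kinds, 0 were called in males, where 0 had an unadjusted limma p under 0.05, and 6 rose in females. Ptprc, which encodes CD45, was at -0.029 in males (adjusted p = 0.65) and rose by 0.24 in females (adjusted p = 0.00027). Laptm5, a lysosomal gene of blood cells, rose by 0.23 in females and was at -0.010 in males (adjusted p = 0.84). The summed leukocyte-wide level was 12.11 to 12.14 in male floxed and 12.12 to 12.15 in male cardioGRKO libraries, which overlap, and 11.99 to 11.99 and 12.07 to 12.10 in the female groups. In females 6 of the 10 leukocyte-wide genes rose, where 15.2% of all genes tested rose. In males 0 of them were called, where 12.8% of all genes rose. The part of leukocyte-wide genes in the result was not tested.

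Macrophage markers gave 1 rise and 1 fall among 14 in males and 4 rises and 2 falls in females. Emr1, an adhesion receptor gene of macrophages, rose by 0.32 in females, and Lyz2, lysozyme, rose by 0.30. Cd68, another macrophage marker, fell by 0.14 there (adjusted p = 0.0008). The female median of the 14 was -0.0055, with 7 above 0. T and NK cell markers gave 0 rises and 1 fall among 10 tested in males, where 2 had an unadjusted limma p under 0.05, and 3 rises in females. Dendritic markers gave 2 falls among 6 in males and 1 rise in females, and neutrophil markers 2 rises among 3 in females. In males 0 of those 3 neutrophil markers had an unadjusted limma p under 0.05. Erythroid markers gave 1 rise among 3 tested in males and 3 in females, while the 4 globin genes of the list were listed at 0 in every library. Of the 6 defining cardiomyocyte markers, 5 fell in males, while 2 rose and 1 fell in females. Of all genes at levels of 11 to 20, 35.3% fell in males, and 37.1% rose and 14.6% fell in females. Of all genes tested, 12.8% rose and 14.6% fell in males, and 15.2% rose and 14% fell in females. Without the 2 libraries with high Krt12, the female differences of Cd74, Ptprc, Laptm5, Emr1 and Lyz2 were 0.16, 0.26, 0.19, 0.35 and 0.24. That leaves 1 library labelled female floxed, which is assumed to vary like the other groups. The part of these lists in the B cell values was not tested.

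B cells are drawn into tissue by CXCL13, and 6 genes of factors that attract or sustain B cells were tested. Cxcl13 was at 4.95, 4.94 and 4.95 in male floxed and at 5.45, 5.33 and 5.38 in male cardioGRKO hearts. It rose by 0.44 in males (adjusted p = 1.7e-10) and was at -0.011 in females (adjusted p = 0.75). The male difference minus the female one was 0.45 (adjusted p = 8.6e-09). Cxcl12, the stromal chemokine that holds B cell precursors in bone marrow, fell by 0.26 in males and rose by 0.22 in females. Ccl19 and Ccl21a were listed at 0 in every library. Like Blk, Cxcl13 had separate groups in males with cardioGRKO higher, as did 19.4% of all genes tested. The part of these factors in the B cell values was not tested.

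Blk lies between Gata4 and Fam167a in the RefSeq gene order. Gm36165 overlaps Blk there, and its part in the Blk values was not tested. Gata4, a cardiac transcription factor gene, was higher by 0.076 in males (adjusted p = 0.016) and by 0.092 in females (adjusted p = 0.0051), but its adjusted p was 0.079 in males without male floxed replicate 2, 0.062 without male cardioGRKO replicate 1 and 0.32 in females without the 2 libraries with high Krt12. Fam167a was at 0.021 in males (adjusted p = 0.34) and -0.041 in females (adjusted p = 0.052). Neither neighbour had a male difference near the 0.71 of Blk. Of the 8 genes around Blk that were tested, 2 rose and 1 fell in males, and Sox7, an endothelial factor gene, fell by 0.25 there (adjusted p = 2.4e-05). Among tested neighbours of the other genes, the male and female differences were 0.0056 and 0.081 for Rps19 and -0.024 and -0.085 for Arhgef1, which flank Cd79a. They were -0.11 and 0.19 for Scn4a beside Cd79b, and -0.014 and 0.075 for Ms4a7 beside Ms4a1. The gene 4930526L06Rik, which overlaps Ms4a1, was at a mean of -0.45 in male floxed hearts and was not tested.

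The mean of the 5 genes is led by Blk, whose range is the widest. The genes whose pattern over the 12 libraries was most like that mean were Mylk3, cardiac myosin light chain kinase (r = 0.98), Fbln2, the matrix protein fibulin 2 (0.98), Myom2, a sarcomere M-band protein (0.98), Ankrd1, a cardiac stress gene (0.97), and Micu2, a regulator of mitochondrial calcium uptake (0.96). Most like Blk alone were Polr1e, an RNA polymerase I subunit (r = 0.99), Gas6, a ligand of TAM receptors (0.99), Ndrg4 (0.98), Scn10a, a voltage-gated sodium channel (0.97), and Ehd4, an endocytic recycling protein (0.97). In Polr1e the male difference was 0.49 and the female one 0.026 (adjusted p = 0.51), and in Scn10a they were 0.31 and -0.030 (adjusted p = 0.42). Most like the mean of Cd79a, Cd79b, Ms4a1 and Cd22, a comparison added after the values were seen, were Nynrin (r = 0.96), Synpo2l (0.96), Ldb3 (0.96), the B cell gene Ltb (0.96) and Myo5b (0.95). All these r values rest on 12 libraries in 4 groups.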

How the data were processed

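Heart RNA was measured in 12 libraries, 3 in each of 4 groups. Per the submitters' processing notes, the authors trimmed reads with Trim Galore, aligned them with TopHat2 to mm9, counted them with HTSeq and normalised them with DESeq2. The deposited log2 values run from -2.20 to 19.51, with 4895 genes at 0 in all libraries. Depth is unknown, because the table holds no counts. Shrinkage of low values is inferred from the values, and no header states it.

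One mean per group was fitted over the 12 libraries with limma 3.58.1 in R 4.3.3, with an intensity trend, for the 14721 genes whose linear value was 10 or more (a deposited value of at least the log2 of 10) in at least 3 libraries. Adjusted p-values are limma's two-sided values after Benjamini-Hochberg adjustment over those genes, with 0.05 as the limit for a call. Floxed was subtracted from cardioGRKO in each sex, and the 2 results were compared. The fit was tested on simulated data.

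The 5 genes and the lists were chosen with earlier results of these data known. By rule, named genes were the 5, up to 4 called genes with the smallest p per list and sex (otherwise up to 2 of the highest level), gene neighbours, and the 5 genes closest in Pearson r to the mean of the 5 and to Blk; part of these are described, and 1 listed gene is not reported here. Alternatives were another filter on low values or none, median centring, quantile normalization, moderation without the trend, a replicate block, a separate fit per sex, and dropping each library in turn. Leaving out both Krt12-high libraries of the female floxed label was chosen after seeing the data. All sample columns were used.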

Additional observations from a re-analysis of the deposited data

Results flagged for a closer look

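For the genes below, the log2 difference between libraries labelled cardioGRKO and floxed was not the same in the male and female comparisons. The limma test of that difference gave an adjusted p under 0.05. Each value is the male difference minus the female one. In all, 31.3% of the genes tested passed this test. Nr3c1 in libraries labelled female floxed (10.74) was not at the male floxed level (11.41), so sex and genotype cannot be told apart in these values.

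Among B cell genes it was 0.28 for Igj, 0.17 for Bcl6, 0.22 for Syk, 0.091 for Spib, -0.13 for Cd72, -0.13 for Ebf1 and 0.74 for Sdc1. It was also 0.34 for Cd24a and -0.11 for Vav1. Cd24a read 7.65 and 7.77 in the 2 libraries with high Krt12 and 7.29 in female floxed replicate 3. For Ebf1 the adjusted p was 0.070 without male floxed replicate 2, 0.051 without male cardioGRKO replicate 2, 0.079 without male cardioGRKO replicate 3, 0.063 without female floxed replicate 2 and 0.067 without female cardioGRKO replicate 3. For Cd72 it was 0.068 without the 2 libraries with high Krt12, and for Spib the value was 0.062 (adjusted p 0.056) under quantile normalization. For Sdc1 the adjusted p was 0.052 without female floxed replicate 1, and the value was 0.14 (adjusted p 0.048) without the 2 libraries with high Krt12.

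Among class II and leukocyte genes it was -0.56 for Cd74, -0.50 for H2-Aa, -0.46 for H2-Ab1, -0.46 for H2-Eb1, -0.26 for Ptprc, -0.24 for Laptm5, -0.38 for Emr1 and -0.27 for Lyz2. These were below 0, unlike the 0.70 of Blk. Of the 14 macrophage markers, 2 passed with a larger male and 2 with a larger female value. Among chemokines it was 0.45 for Cxcl13 and -0.49 for Cxcl12.

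Among gene neighbours it was 0.063 for Fam167a, -0.39 for Sox7 and -0.30 for Scn4a. For Fam167a the adjusted p was above 0.05 without male floxed replicate 1 (0.066) or 2 (0.088), male cardioGRKO replicate 2 (0.087) or 3 (0.057), female floxed replicate 2 (0.095) or female cardioGRKO replicate 1 (0.069) or 3 (0.069). It was also above 0.05 without the 2 libraries with high Krt12 (0.12), under quantile normalization (a value of 0.028, adjusted p 0.37), with median centring (0.075), without the trend (0.085), without the filter (0.067) and with the replicate block (0.052). Among genes with a like pattern it was 0.88 for Ankrd1, 0.48 for Ehd4, 0.13 for Fbln2, 0.31 for Gas6, 0.14 for Micu2, 0.17 for Mylk3, 0.20 for Myom2, 0.44 for Ndrg4, 0.46 for Polr1e and 0.34 for Scn10a. Nr3c1 itself gave -0.70.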

How the results depend on the processing

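The median difference of the 5 genes was 0.12 in males, 0.063 in females and 0.052 for the male minus female difference. Leaving out 1 library moved these between 0.109 and 0.139 (highest without male floxed replicate 2), 0.0557 and 0.0682, and 0.0418 and 0.0684. Quantile normalization gave 0.0865 in females and 0.0207 for the difference, and the stricter filter, which keeps 3 of the 5 genes, gave 0.0016 for the difference. Other B cell genes called higher in males numbered 11 to 18 and lower 3 to 4 when 1 library was left out. The stricter filter tests 30 of these genes in place of 46, in males and in females, and 8 rose under it in males. In females 5 to 9 rose (5 without female floxed replicate 3) and 3 to 5 fell. There 5 rose under the stricter filter and 16 under quantile normalization, and 2 fell in the fit within 1 sex and 2 without the 2 libraries with high Krt12. For the difference 4 to 7 were higher and 2 to 4 lower, with 6 lower under quantile normalization and 1 without those libraries. Sdc1 turned from a fall to 0.0042 without them. The cause was not tested.

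Replicate numbers did not pair the libraries, since same-numbered ones correlated at -0.11 to 0.15 in their deviations. With the replicate block 15 other B cell genes rose and 3 fell in males, and 8 rose and 4 fell in females. For the male minus female difference 6 were higher and 3 lower. By construction the block leaves differences of group means as they are. Without counts, depth limits no value here by a known amount, and low values are drawn together.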

Other observations

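Other B cell genes followed the pattern of Cd79a, Cd79b, Ms4a1 and Cd22 in part. Of the 46 tested, 11 had a Pearson r over 0.8 with the mean of the 4 over the 12 libraries, beside 2.42% of all genes tested, and the median r was 0.40 against -0.011. Ltb (0.96), Cd37 (0.94), Pou2af1, a B cell coactivator gene (0.94), and Spib (0.93) were closest. With Blk alone the median r of these 46 genes was 0.31. Igj stood at 0.73 with Blk and at 0.87 with the mean of the 4. The libraries and their normalisation are shared by all points. The comparison with the 4 genes was added after the values were seen.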
